A study of Mus musculus with 16 samples.

Results

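The Ikaros family of zinc finger transcription factors comprises Ikaros (Ikzf1), Helios (Ikzf2), Aiolos (Ikzf3), Eos (Ikzf4) and Pegasus (Ikzf5). The level of 5-hydroxymethylcytosine (5hmC) over these 5 genes was followed in 4 kinds of mouse CD4 T cells. The members were all regions of the table of read counts whose nearest transcript carries 1 of these 5 symbols. They were 90 of 177720 regions and 5 of 15543 symbols. Ikzf2 held 60 of the regions, Ikzf1 18, Ikzf5 7, Ikzf3 3 and Ikzf4 2. All levels are reads from a pull-down of 5hmC in DNA, not divided by input unless stated, and none is an expression level.

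All mice were Foxp3-eGFP reporter animals of the C57BL/6 strain, 5 to 6 weeks old, in which green fluorescence marks cells that express Foxp3, the lineage factor of regulatory T (Treg) cells. Naive cells were sorted from spleen and lymph nodes as CD4+eGFP-CD25-CD62LhiCD44lo, and Treg cells as CD4+eGFP+. The other 2 groups were induced Treg (iTreg) cells, differentiated in culture from naive CD4 T cells with transforming growth factor β (TGFβ) alone or with TGFβ to which both retinoic acid (RA) and vitamin C (VitC) were added. RA and VitC were always given together and every culture held TGFβ, so neither agent can be read alone. The labels give no duration of culture and no sort of the iTreg cells by eGFP, so an iTreg library may hold cells without Foxp3. There were 2 pull-downs and 2 inputs for each group, and the labels do not say that these came from separate mice or cultures. The p-values below therefore measure only how far these libraries lie apart, and that distance may be technical. In such bulk DNA, more cells with 5hmC at a gene and more 5hmC per cell cannot be told apart.

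Ikaros family proteins bind DNA through zinc fingers at their N-terminal end and pair with each other through fingers at the C-terminal end, so that members can form mixed dimers. Ikaros and Aiolos act in lymphocyte development, largely by recruiting chromatin complexes such as NuRD. Helios and Eos are enriched in Treg cells: Helios supports the stability of the lineage, and Eos is a partner of Foxp3 in gene silencing. 5hmC is made from 5-methylcytosine by TET dioxygenases, for which VitC is a cofactor, and is an intermediate of active DNA demethylation, often found over the bodies and enhancers of active genes. Start sites rich in CpG usually carry little of either mark.

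The promoters are shown because the outermost start of each member lay outside every region of 5hmC. Starts further inside the genes were not examined in this way. The promoter table of RefSeq (build GRCm38.p6) matched 2 of the 5 members, and gives the 250 bases before each start, with every CpG in capitals. Ikzf1 has a start downstream of 11:11685675-11685924 (+ strand) with 44 CpG, and another 4252 bases further on, downstream of 11:11689927-11690176 (+), with 1 CpG. Ikzf5 has a start next to 7:131410479-131410728 (- strand) with 18 CpG. The median over all 32851 windows of this length was 6 CpG. At least 44 CpG were found in 0.539% of them, at least 18 in 21.7% and at least 1 in 92.1%.
Ikzf1 first start: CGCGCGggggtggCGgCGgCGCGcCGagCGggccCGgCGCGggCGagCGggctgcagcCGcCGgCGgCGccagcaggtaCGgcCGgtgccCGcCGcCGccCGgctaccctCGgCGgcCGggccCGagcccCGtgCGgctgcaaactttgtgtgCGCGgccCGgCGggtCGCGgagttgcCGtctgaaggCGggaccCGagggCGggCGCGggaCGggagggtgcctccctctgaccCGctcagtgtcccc
Ikzf1 second start: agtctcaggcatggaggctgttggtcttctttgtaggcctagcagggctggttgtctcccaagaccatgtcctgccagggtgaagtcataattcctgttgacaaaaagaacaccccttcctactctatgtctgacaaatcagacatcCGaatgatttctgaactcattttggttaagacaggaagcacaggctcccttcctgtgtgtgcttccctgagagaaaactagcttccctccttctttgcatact
Ikzf5 start: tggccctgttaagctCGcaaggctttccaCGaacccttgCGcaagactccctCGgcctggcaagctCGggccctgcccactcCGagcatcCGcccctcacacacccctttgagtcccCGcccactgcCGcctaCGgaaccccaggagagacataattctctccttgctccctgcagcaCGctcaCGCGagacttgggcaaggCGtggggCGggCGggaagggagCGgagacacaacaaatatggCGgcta

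In the coordinates of the count table (build mm9), the gap without a region around the outermost start was 11401 bp at Ikzf1, 5378 bp at Ikzf2, 1659 bp at Ikzf3, 1128 bp at Ikzf4 and 1527 bp at Ikzf5. This is the usual state of a start in these data, since 87.5% of the 17717 transcript starts named in the table lay outside every region. Regions filled most of the transcript itself at 4 of the members: 97.2% of Ikzf3, 94.9% of Ikzf2, 90.4% of Ikzf4 and 80% of Ikzf1. Only 25.2% of the Ikzf5 transcript lay in a region.

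Sequencing depth differed between the groups. Reads in regions numbered 7664194 to 9731897 in the naive and Treg pull-downs, 3828487 to 3996442 with TGFβ+RA+VitC, 1648804 to 2114056 with TGFβ alone, and 1028822 to 1563165 in the inputs. The TGFβ libraries thus give the widest errors. Reads in regions of a pull-down over those of its input were 1.49 and 1.72 with TGFβ and 3.88 and 3.14 with TGFβ+RA+VitC. They were 4.9 to 6.39 in naive and Treg. This ratio mixes enrichment with depth. Whether a weaker pull-down drew the TGFβ levels toward those of the inputs was not tested. Replicates of a pull-down group differed by 1.12 to 1.23 times the variance expected from counting alone. Of the 90 regions, 79 had enough reads to be tested: all of Ikzf1, Ikzf3 and Ikzf4, 52 of 60 of Ikzf2 and 4 of 7 of Ikzf5. The tests were edgeR's quasi-likelihood tests with Benjamini-Hochberg adjustment over all regions, or all symbols, and a call is an adjusted p under 0.05. Differences are on the log2 scale and errors are standard errors (SE) unless stated.

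Per kilobase, the pull-down level of Ikzf2 was lowest of the 5 genes in naive cells and above that of Ikzf1 in Treg cells. These levels are not divided by input. Relative to the share of input reads, Ikzf2 held 1.42 and 1.44 in Treg and Ikzf1 1.41 and 1.3, which lie close together. The sum over the regions of a gene is given as CPM, the usual depth-scaled count, relative to the TMM-scaled reads in the regions with a symbol. In naive cells it was 7.09 ± 0.067 CPM per kb at Ikzf1 (SD, n = 2 here and below), 6.76 ± 0.0415 at Ikzf3, 3.59 ± 0.0628 at Ikzf4, 2.91 ± 0.565 at Ikzf5 and 1.52 ± 0.0383 at Ikzf2. In Treg cells the order was Ikzf3 at 8.31 ± 0.325, Ikzf4 at 6.49 ± 0.0145, Ikzf2 at 5.95 ± 0.0308, Ikzf1 at 5.17 ± 0.00114 and Ikzf5 at 3.86 ± 0.139. With TGFβ, Ikzf1 at 6.06 ± 0.399 and Ikzf4 at 6.06 ± 1.04 did not differ beyond their spread, nor from Ikzf3 at 5.50 ± 0.305. Ikzf5 at 3.77 ± 0.55 and Ikzf2 at 3.70 ± 0.0715 also overlapped. With TGFβ+RA+VitC, Ikzf3 at 8.59 ± 0.0831 and Ikzf4 at 8.46 ± 0.0144 stood above Ikzf1 at 7.03 ± 0.216, followed by Ikzf5 at 4.50 ± 0.668 and Ikzf2 at 4.14 ± 0.17, which did not differ beyond their spread.

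**Figure D1:**
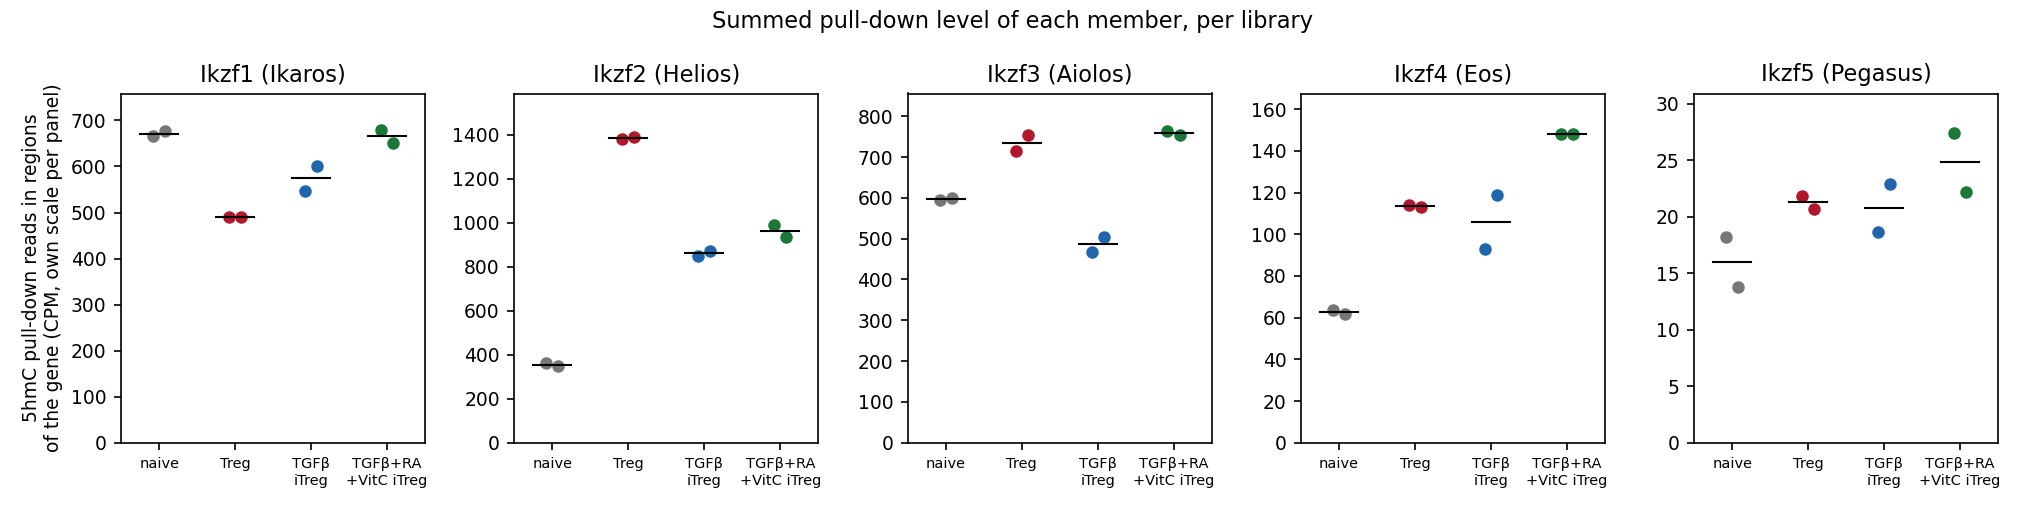
Summed 5hmC pull-down level (CPM, vertical axis from 0, own scale per panel) of each member in the 8 pull-down libraries; points are libraries and lines group means. Ikzf2 rises from 348 and 361 CPM in naive cells to 1380 and 1390 in Treg cells, while Ikzf1 is lowest in Treg cells.

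Helios (Ikzf2; 1:69577784-69732534, - strand, mm9) showed the largest difference of the family. The summed level was 361 and 348 CPM in the naive libraries, 1380 and 1390 in Treg, 849 and 872 with TGFβ, and 991 and 936 with TGFβ+RA+VitC. No groups overlapped: naive was lowest, Treg highest, and both kinds of iTreg lay between. The level was 3.91-fold that of naive cells in Treg (log2 1.97, SE 0.04, adjusted p = 2.6e-74), 2.43-fold with TGFβ (1.28, SE 0.05) and 2.72-fold with TGFβ+RA+VitC (1.44, SE 0.05). These 3 comparisons share the naive libraries. Both iTreg groups stayed below Treg, by 1.61-fold with TGFβ and 1.44-fold with TGFβ+RA+VitC. The difference between the iTreg groups was small (0.16, SE 0.05, adjusted p = 0.01) and was no longer called with library sizes alone (0.06, adjusted p = 0.38) or without TGFβ+RA+VitC replicate 1 (0.13, adjusted p = 0.13).

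The pull-down level at Ikzf2 was above naive over, upstream and downstream of the transcript in all 3 other groups. The 60 regions cover 233 kb, with 8 over the transcript, 19 upstream and 33 downstream of it. In naive cells the 3 parts had the same level, 1.52 CPM per kb each. Treg cells had 7.06 CPM per kb over the transcript, 4.41 upstream and 3.72 downstream. TGFβ iTreg cells had 4.10, 2.48 and 3.41, and TGFβ+RA+VitC iTreg cells 4.79, 2.01 and 3.83, in the same order. The inputs, scaled to the reads in all regions without TMM, had 4.26, 4.47 and 4.36 CPM per kb in naive and 3.88, 4.05 and 4.51 in Treg. They had 4.21, 4.31 and 4.49 with TGFβ, and 4.37, 4.87 and 5.01 with TGFβ+RA+VitC. Downstream the pull-down thus stood below its input in every group, and upstream in every group but Treg. A higher level than naive there is no enrichment over input. Over the transcript both iTreg groups lay below Treg (-0.78, SE 0.05, and -0.56, SE 0.05). Upstream they lay further below it (-0.82, SE 0.09, and -1.13, SE 0.08). Downstream neither difference from Treg was called (-0.13, adjusted p = 0.19, and 0.04, adjusted p = 0.6). Whether these differences themselves differ between the parts was not tested.

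Region by region, 41 of the 52 tested Ikzf2 regions were higher and 2 lower in Treg than in naive cells. The regions are a union of broad peaks, so one may be present only through a group where it is high. Counts of higher regions, here and for the family below, are therefore a description and no separate support for a gain. The iTreg libraries were shallower, so the counts of calls below cannot be compared between groups as they stand. Upstream, 15 of 16 tested regions were higher than naive in Treg, 4 with TGFβ and 4 (with 2 lower) with TGFβ+RA+VitC. Over the transcript, 7 of 8 were higher in Treg and all 8 were higher in each kind of iTreg. Downstream, 19, 11 and 18 of 28 were higher in Treg, TGFβ and TGFβ+RA+VitC cells, with 1 lower in each. In the same order, median differences from naive were 1.7, 0.74 and 0.33 upstream. They were 2.64, 1.26 and 1.36 over the transcript, and 1.39, 0.96 and 1.4 downstream. Over all 135412 tested regions, 13.0%, 13.1% and 21.9% were called higher than naive in Treg, TGFβ and TGFβ+RA+VitC cells. The shares called lower were 10.1%, 8.22% and 15.8%. Of all 60 Ikzf2 regions, 37 had their highest mean level in Treg and 46 their lowest in naive cells. How many regions outside the family share these orders was not counted.

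**Figure D2:**
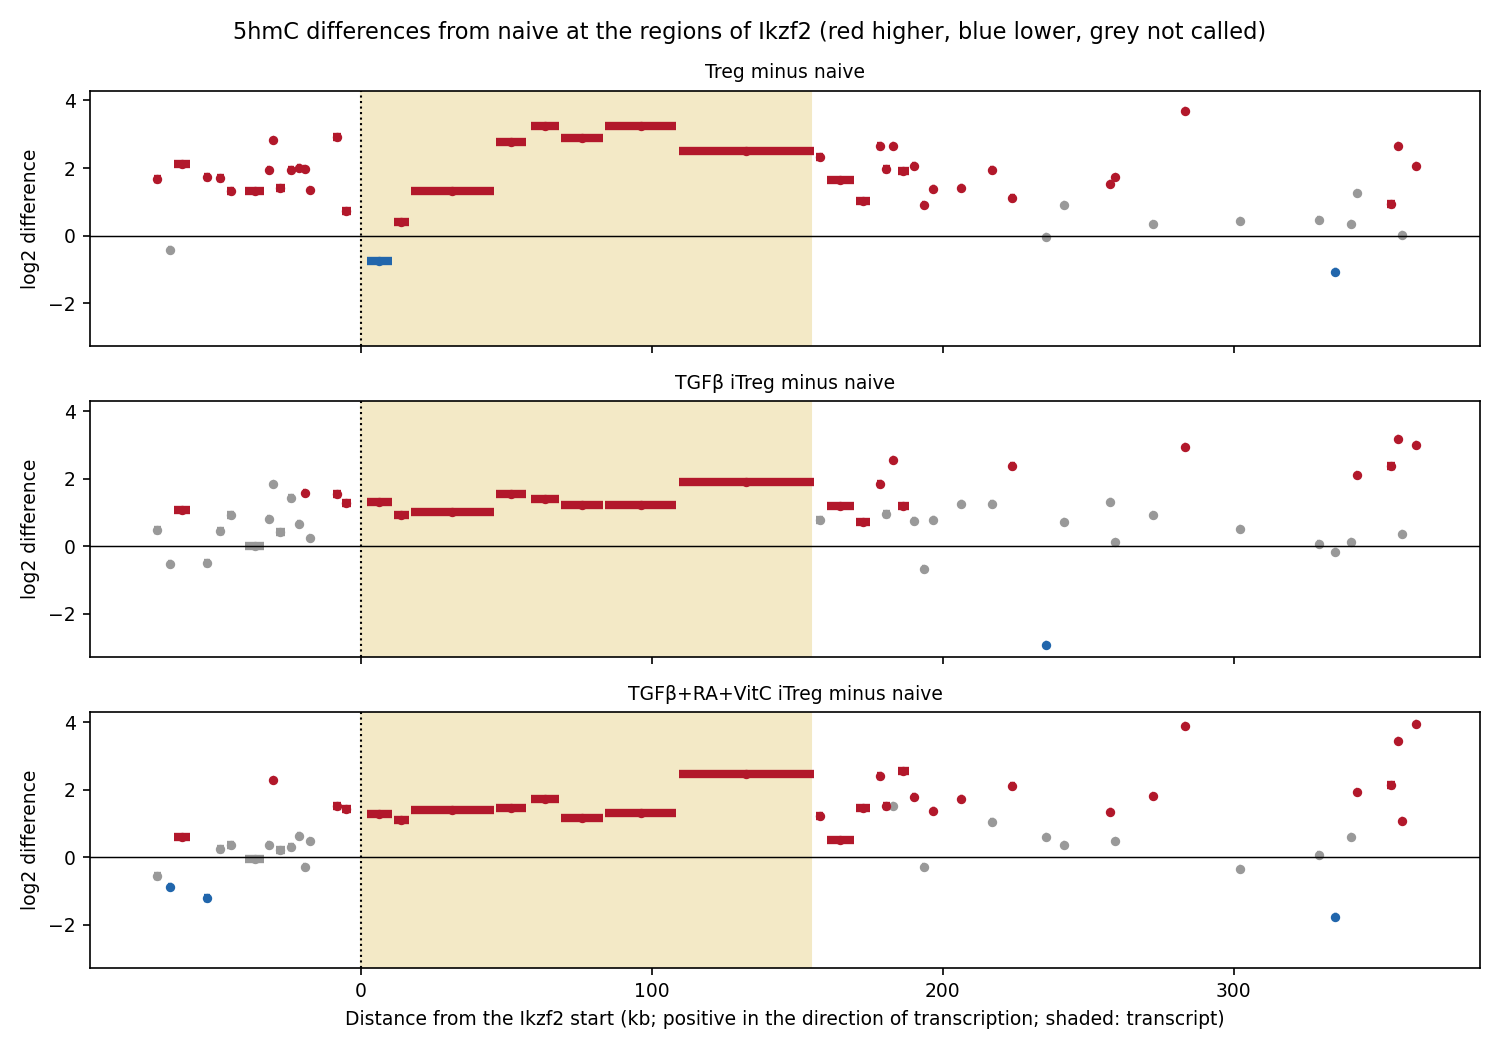
Difference in 5hmC from naive cells (log2, vertical axis) at the 52 tested Ikzf2 regions by distance from the start (kb, positive along transcription), with the transcript shaded; bars span a region, and red, blue and grey mark regions called higher, lower or not called. Treg cells are well above naive in the middle of the gene and below naive just inside the start, where both iTreg groups are higher than naive.

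In the middle of the gene, 4 neighbouring regions were well above all other groups in Treg. At Ikzf2 region 35 (1:69624171-69648754, exon and intron; regions are numbered along the chromosome) the level was 24.5 and 24.1 CPM in naive, 232 and 228 in Treg, 56.8 and 56.5 with TGFβ, and 62.1 and 59.4 with TGFβ+RA+VitC. Here and for other single regions, CPM is relative to the reads in all regions, so these values do not add up to the gene sums. Treg cells stood 9.47-fold above naive and also far above both iTreg groups (-2.02, SE 0.11, and -1.92, SE 0.09, for iTreg minus Treg). The next 3 regions toward the start, numbers 36 to 38, were also highest in Treg, with iTreg minus Treg between -1.24 and -1.85, while the order of the iTreg groups varied. At region 34, which covers the 3′ end of the gene (1:69576912-69623360) and held the most reads of the 60 Ikzf2 regions, the pattern differed. It had 54.3 and 50.0 CPM in naive, 290 and 301 in Treg, 194 and 200 with TGFβ, and 301 and 267 with TGFβ+RA+VitC, so that Treg and TGFβ+RA+VitC overlapped (-0.06, SE 0.07, adjusted p = 0.61). TGFβ+RA+VitC was above TGFβ there (0.53, SE 0.09, adjusted p = 8.2e-07).

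Just inside the start the order turned. Ikzf2 region 41 (1:69721864-69730680), whose near edge lies 1854 bp inside the start, had 25.7 and 30.2 CPM in naive cells and 16.7 and 17.0 in Treg. It had 53.9 and 82.6 CPM with TGFβ and 74.0 and 61.4 with TGFβ+RA+VitC. Treg was thus the lowest group (-0.74 against naive, SE 0.12, adjusted p = 6.6e-08) and both iTreg groups stood 4.11-fold and 4.01-fold above it. The first region on the other side of the start, region 42 (1:69736059-69739239), had 9.27 and 8.12 CPM in naive, 15.0 and 13.9 in Treg, 19.5 and 22.7 with TGFβ, and 21.2 and 25.9 with TGFβ+RA+VitC. It was higher in TGFβ+RA+VitC iTreg than in Treg by 0.70 (SE 0.16) and in TGFβ iTreg by 0.56 (SE 0.20, adjusted p = 0.042). Together with region 40, the next one inside the gene, regions 41 and 42 were the 3 of 24 tested regions over or upstream of the gene called higher in TGFβ+RA+VitC iTreg than in Treg. Region 43, which lies nearer to the start than region 40, was lower in that comparison (-1.41, SE 0.22). This trio was picked out after its values were seen.

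Further upstream, regions 43 and 55 were both highest in Treg. Region 43 (1:69739589-69742359), the second region upstream, had 1.85 and 2.38 CPM in naive, 16.3 and 16.5 in Treg, 5.17 and 7.24 with TGFβ, and 4.80 and 7.49 with TGFβ+RA+VitC. Region 55 (1:69784461-69786583) had 11.6 and 10.3 CPM in Treg, 2.84 and 3.67 in naive, 2.30 and 2.41 with TGFβ, and 1.69 and 1.15 with TGFβ+RA+VitC. The last group was lower there even than naive cells (-1.20, SE 0.45, adjusted p = 0.026). Beyond the outermost upstream region the table assigns the DNA to Spag16, a sperm flagellum gene. All 5 flanking regions there, up to 29.0 kb further out, were also higher in Treg than in naive (1.30 to 2.99), and all 5 were lower in TGFβ+RA+VitC iTreg than in Treg (-0.72 to -3.10). Of the same 5, 1 was higher than naive with TGFβ and 2 with TGFβ+RA+VitC, where 1 was lower. Among all tested regions, 13.0% were called higher in Treg than in naive, and 11.4% lower in TGFβ+RA+VitC iTreg than in Treg. The shares higher than naive were 13.1% with TGFβ and 21.9% with TGFβ+RA+VitC. Downstream regions did not share 1 order of the groups. Region 4 (1:69376943-69379717), centred 354.2 kb from the start, had 6.18 and 5.55 CPM in naive, 12.4 and 10.1 in Treg, 29.3 and 31.4 with TGFβ, and 26.8 and 24.5 with TGFβ+RA+VitC, so that both iTreg groups lay above Treg. Region 8 (1:69397145-69398121) had 6.06 and 5.85 CPM in naive, 3.45 and 2.16 in Treg, 6.31 and 4.34 with TGFβ, and 1.41 and 2.02 with TGFβ+RA+VitC. It was lower than naive in Treg (-1.09, SE 0.26) and with TGFβ+RA+VitC (-1.78, SE 0.39). Region 27 (1:69544175-69548144) had 3.96 and 4.16 CPM in naive, 16.0 and 14.8 in Treg, 9.18 and 9.65 with TGFβ, and 28.0 and 20.2 with TGFβ+RA+VitC. The last group was highest there (1.35 over TGFβ, SE 0.25, and 0.65 over Treg, SE 0.16). Region 31 (1:69557429-69562214) was highest with TGFβ+RA+VitC too, by 0.72 over TGFβ (SE 0.23) and 0.42 over Treg (SE 0.15).

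Eos (Ikzf4; 10:128069471-128083049, - strand, mm9) was higher than naive in all 3 Treg groups, and highest with TGFβ+RA+VitC. The sum was 63.5 and 62.0 CPM in naive, 114 and 113 in Treg, 93.1 and 119 with TGFβ, and 148 and 148 with TGFβ+RA+VitC. TGFβ iTreg and Treg cells overlapped (-0.08, SE 0.09, adjusted p = 0.52), and the other groups did not. Against naive the differences were 0.86 in Treg (SE 0.07, adjusted p = 5.9e-22), 0.77 with TGFβ (SE 0.10) and 1.24 with TGFβ+RA+VitC (SE 0.08, adjusted p = 3.7e-31). TGFβ+RA+VitC stood above TGFβ by 0.47 (SE 0.10, adjusted p = 5.2e-05) and above Treg by 0.38 (SE 0.07).

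The 2 regions of Ikzf4 behaved differently. Region 2 (10:128074640-128082643) covers the promoter side of the gene, with promoter, 5′ UTR, exon and intron sequence, from 406 bp inside the start. It had 30.0 and 28.4 CPM in naive, 54.7 and 56.7 in Treg, 65.4 and 80.6 with TGFβ, and 116 and 113 with TGFβ+RA+VitC. The groups did not overlap and all 6 comparisons were called, up to 1.97 (SE 0.10) for TGFβ+RA+VitC minus naive. Region 1 (10:128064275-128073736) covers the 3′ part with the 3′ UTR and also the promoter of Rps26, a ribosomal protein gene, so its reads cannot be given to Ikzf4 alone. It had 28.9 and 29.2 CPM in naive, 49.3 and 47.8 in Treg, 17.8 and 29.4 with TGFβ, and 27.1 and 29.1 with TGFβ+RA+VitC. There Treg was the highest group (0.74 over naive, SE 0.10), and neither iTreg group was called against naive (-0.27, adjusted p = 0.29, and -0.05, adjusted p = 0.81).

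**Figure D3:**
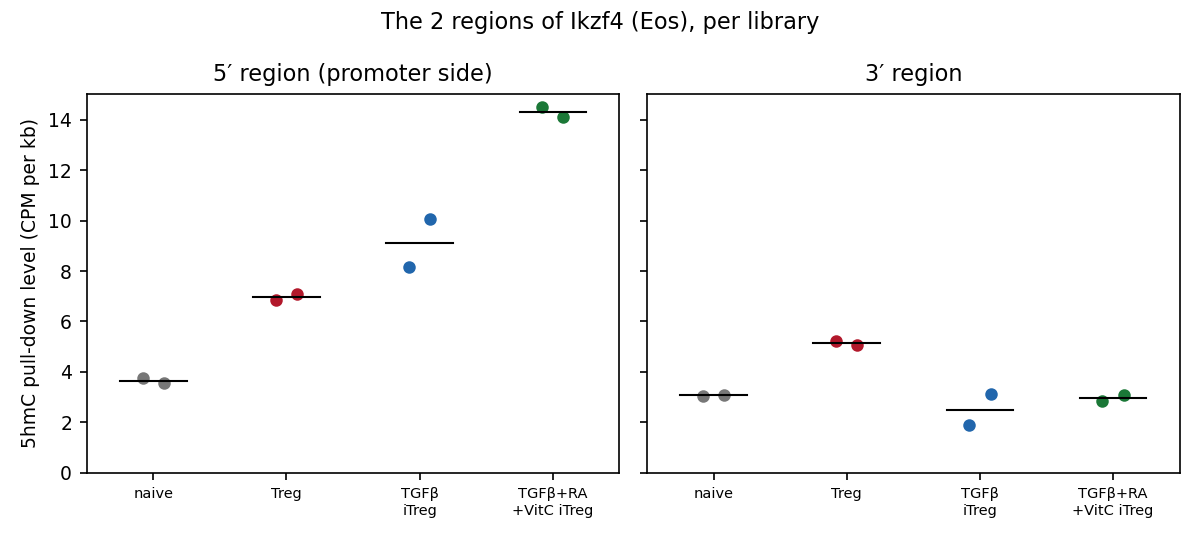
5hmC level (CPM per kb, vertical axis from 0) at the 5′ and the 3′ region of Ikzf4 in each of the 8 pull-down libraries; points are libraries and lines group means. The 5′ region climbs from naive through Treg and TGFβ to TGFβ+RA+VitC, while the 3′ region is highest in Treg.

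The ratio of the 5′ to the 3′ region within a library needs no scaling between libraries. Its log2 was 0.05 and -0.04 in naive, 0.15 and 0.25 in Treg, 1.88 and 1.45 with TGFβ, and 2.1 and 1.96 with TGFβ+RA+VitC. The 4 groups differed by an exact permutation test (p = 0.0095, the smallest that the 105 arrangements of 8 libraries into 4 pairs allow). This test was added after the values were seen and its p is unadjusted, so it is no separate support. The same ratio in the inputs lay between -0.58 and 0.06 (exact permutation p = 0.79). On the other side of the Ikzf4 start, the next region (10:128083772-128085742), which carries no symbol in the table, was higher than naive by 1.34 in Treg, 1.43 with TGFβ and 2.08 with TGFβ+RA+VitC.

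Ikaros (Ikzf1; 11:11586216-11672929, + strand, mm9), the founding member, was lowest in Treg cells. The sum was 667 and 676 CPM in naive, 490 and 490 in Treg, 547 and 601 with TGFβ, and 680 and 651 with TGFβ+RA+VitC. Treg was below naive by 1.37-fold (log2 -0.46, SE 0.04, adjusted p = 6.5e-17) and TGFβ iTreg by 1.17-fold (-0.22, SE 0.05, adjusted p = 2.0e-04). TGFβ+RA+VitC overlapped naive (-0.01, SE 0.05, adjusted p = 0.83), but was called lower with library sizes alone (-0.17, adjusted p = 0.00015). It stood above TGFβ by 0.21 (SE 0.06, adjusted p = 0.002), which was no longer called with library sizes alone (0.10, adjusted p = 0.12), over transcript regions only (0.15, adjusted p = 0.057) or without TGFβ replicate 1 (0.15, adjusted p = 0.056). Both iTreg groups were above Treg (0.23, SE 0.05, and 0.44, SE 0.05).

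The loss in Treg lay over the transcript regions (sum -0.60, SE 0.05) and, to a smaller degree, over the promoter or 5′ UTR regions. The latter summed to -0.29 (SE 0.06, edgeR adjusted p = 4e-05), while the upstream sum was not called (0.01, SE 0.07). Over the transcript, 6 of 9 regions were lower than naive and none was called higher. Of the 2 regions on the promoter or 5′ UTR, 1 was lower. Of the 7 upstream regions none was lower, and 1 with few reads was higher. Among all tested regions, 10.1% were called lower and 13.0% higher in Treg minus naive. Beside such shares, counts among 2 or 7 regions are a description only. Ikzf1 region 15 (11:11643750-11658857) had the lowest p: 144 and 145 CPM in naive, 74.8 and 81.2 in Treg, 67.1 and 79.2 with TGFβ, and 93.2 and 92.8 with TGFβ+RA+VitC. It was lower than naive in every other group (-0.89, SE 0.08; -0.97, SE 0.11; -0.64, SE 0.09). Its neighbour region 14 (11:11641780-11642924) moved the other way in iTreg, with 3.83 and 3.37 CPM in naive, 3.94 and 3.53 in Treg, 13.2 and 14.0 with TGFβ, and 9.60 and 12.1 with TGFβ+RA+VitC. Naive and Treg overlapped there, and both iTreg groups stood above them (1.92, SE 0.29, and 1.59, SE 0.26, against naive). Upstream, region 4 (11:11564804-11570584) was high with TGFβ+RA+VitC: 69.5 and 57.0 CPM, against 30.4 and 28.9 in naive, 30.9 and 30.2 in Treg, and 35.6 and 40.6 with TGFβ (0.73 over TGFβ, SE 0.15, adjusted p = 7.9e-05). Region 13 (11:11626305-11641086, intron), which held the most reads of the gene, had 117 and 116 CPM in naive, 83.4 and 78.9 in Treg, 87.2 and 110 with TGFβ, and 129 and 122 with TGFβ+RA+VitC. Treg was the lowest group there (-0.52 against naive, SE 0.08), and TGFβ+RA+VitC stood above it by 0.63 (SE 0.09). Of the 2 promoter regions, region 8 (11:11579374-11585234), before the start, was called in none of the 6 comparisons, with 25.1 and 26.9 CPM in naive and 21.8 and 22.7 in Treg. Region 9 (11:11596636-11610482), which reaches the 5′ UTR, had 88.5 and 91.3 CPM in naive, 69.2 and 73.7 in Treg, 74.6 and 86.4 with TGFβ, and a mean of 101 with TGFβ+RA+VitC. It was lower than naive in Treg (-0.33, SE 0.08) and higher than Treg with TGFβ+RA+VitC (0.50, SE 0.09). Upstream region 6 (11:11575753-11578410) was lower than naive in both iTreg groups (-0.66, SE 0.26, and -0.66, SE 0.20). The largest fitted differences of the gene rest on few reads. Region 17 had 9 and 6 reads with TGFβ, 1 and 0 with TGFβ+RA+VitC and none in the 4 naive and Treg libraries.

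**Figure D4:**
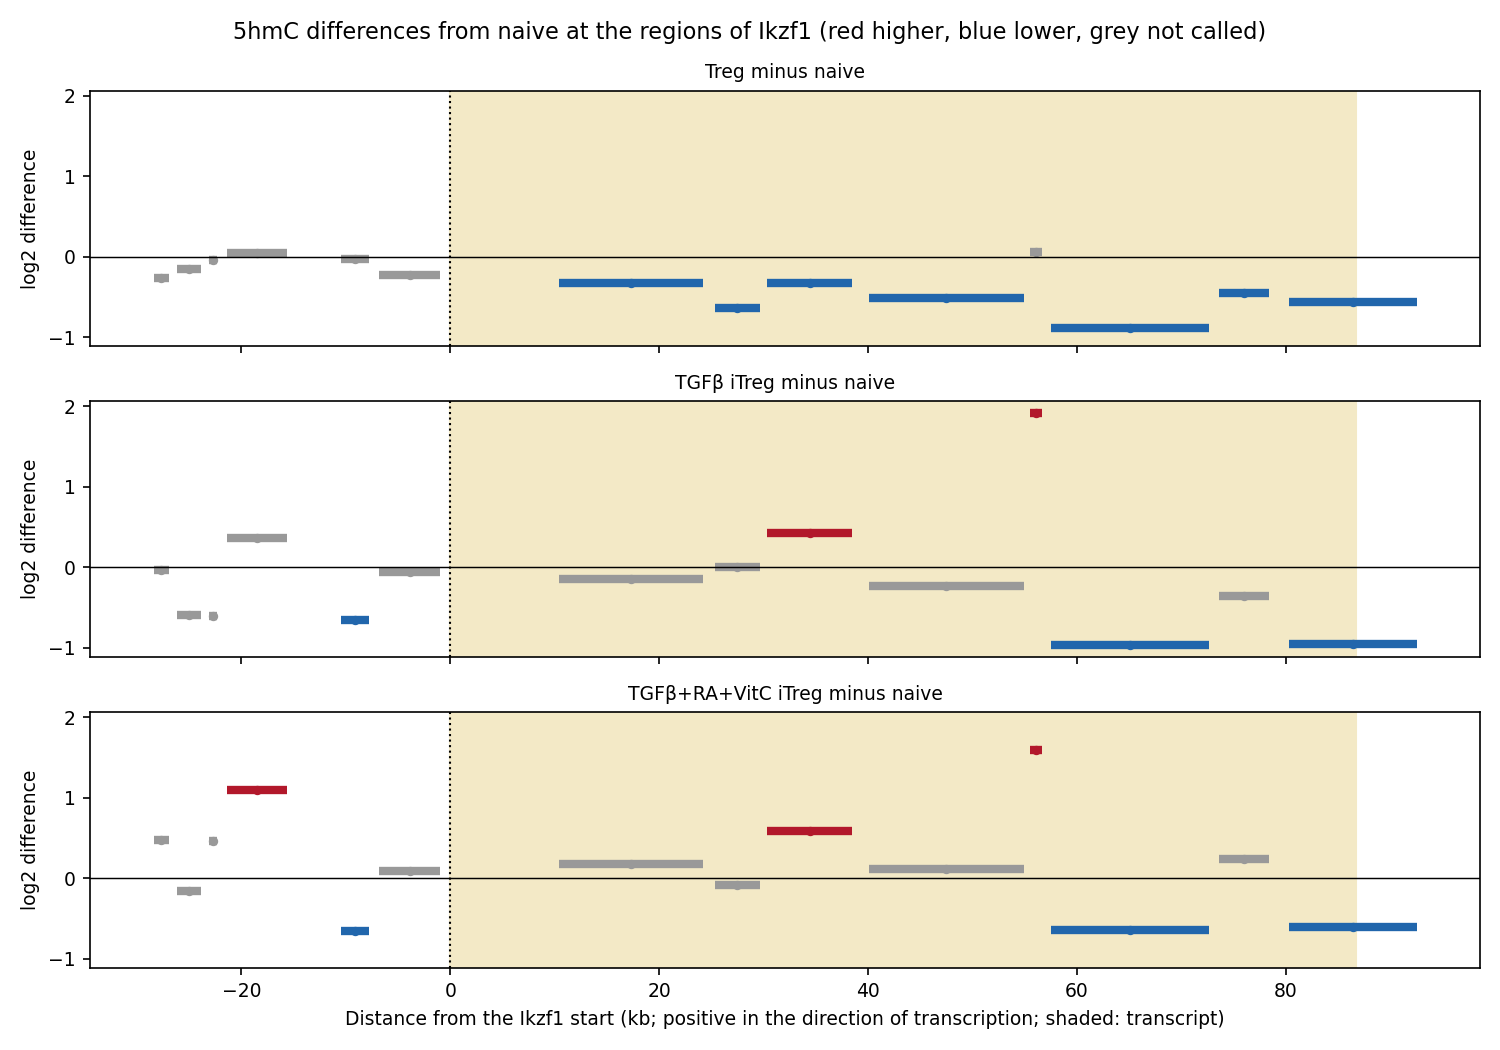
Difference in 5hmC from naive cells (log2, vertical axis) at the 14 of 18 Ikzf1 regions with a mean of at least 20 reads, by distance from the start (kb), with the transcript shaded; red, blue and grey mark regions called higher, lower or not called. In Treg cells the called regions over the transcript are all lower, while iTreg cells show higher and lower regions side by side.

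Aiolos (Ikzf3; 11:98326007-98407345, - strand, mm9), the closest relative of Ikaros, had the largest difference between the iTreg groups among the 5 gene sums. The sum was 594 and 600 CPM in naive, 714 and 754 in Treg, 467 and 505 with TGFβ, and 763 and 753 with TGFβ+RA+VitC. TGFβ iTreg was the lowest group and lay below naive (-0.29, SE 0.05, adjusted p = 2.1e-06). TGFβ+RA+VitC lay above TGFβ by 1.56-fold (0.64, SE 0.06, adjusted p = 1.1e-18) and above naive by 0.34 (SE 0.05). It was not called against Treg (0.05, SE 0.05, adjusted p = 0.42), and their libraries overlapped, but it was called lower with library sizes alone (-0.12, adjusted p = 0.0091). Region 1 (11:98320779-98369618), the larger of the 2 long regions, had 305 and 303 CPM in naive, 371 and 400 in Treg, 241 and 268 with TGFβ, and 452 and 467 with TGFβ+RA+VitC. Region 2 (11:98370436-98405882) had 227 and 236 in naive, 266 and 278 in Treg, 157 and 181 with TGFβ, and 261 and 232 with TGFβ+RA+VitC, where naive and TGFβ+RA+VitC overlapped (0.09, adjusted p = 0.38). Region 3 (11:98407542-98411537), just upstream of the start, had 19.4 and 18.9 CPM in naive, 16.3 and 18.2 in Treg, 19.5 and 18.8 with TGFβ, and 27.7 and 25.6 with TGFβ+RA+VitC. TGFβ+RA+VitC was the highest group there and was called above naive (0.48, SE 0.15, adjusted p = 0.0047) and above Treg (0.63, SE 0.15, adjusted p = 0.00029), while it was not called against TGFβ (0.48, SE 0.21, adjusted p = 0.17).

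Pegasus (Ikzf5; 7:138532163-138553992, - strand, mm9), the most distant member of the family, had few and short regions and low levels. The sum was 18.2 and 13.8 CPM in naive, 21.8 and 20.7 in Treg, 18.6 and 22.9 with TGFβ, and 27.4 and 22.2 with TGFβ+RA+VitC. It was above naive in Treg (0.42, SE 0.13, adjusted p = 0.0059) and with TGFβ+RA+VitC (0.65, SE 0.16, adjusted p = 0.00018). The first call was lost without naive replicate 2 (0.22, adjusted p = 0.32), with DESeq2 (adjusted p = 0.15) and with all libraries thinned to the depth of the smallest (adjusted p = 0.22). The second was lost only by thinning (0.35, adjusted p = 0.30) among the alternatives run. TGFβ was not called against naive (0.40, SE 0.20, adjusted p = 0.1). Region 7 (7:138551403-138553041), which held the most reads of the gene and also overlaps the promoter of Acadsb, a gene of fatty acid breakdown, had 5.93 and 5.15 CPM in naive, 8.62 and 7.40 in Treg, 6.31 and 7.72 with TGFβ, and 9.60 and 8.36 with TGFβ+RA+VitC. It was called above naive in Treg (0.54, SE 0.20, adjusted p = 0.038) and with TGFβ+RA+VitC (0.70, SE 0.25, adjusted p = 0.015). Region 1 (7:138532236-138533574), at the 3′ end, had 1.11 and 1.09 CPM in naive, 3.57 and 3.42 in Treg, 3.44 and 4.83 with TGFβ, and 6.78 and 3.17 with TGFβ+RA+VitC, and was called higher than naive in all 3.

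The calls were then counted over the whole family. Treg minus naive had 48 of 79 regions higher and 9 lower, where 13.0% and 10.1% of all 135412 tested regions were called in these directions. TGFβ minus naive had 31 higher and 6 lower (background 13.1% and 8.22%), and TGFβ+RA+VitC minus naive 41 and 6 (background 21.9% and 15.8%). TGFβ+RA+VitC minus TGFβ had 11 higher and 2 lower (4.56% and 1.98%). TGFβ minus Treg had 12 higher and 20 lower (9.58% and 5.82%), and TGFβ+RA+VitC minus Treg 23 and 21 (17.8% and 11.4%). Ikzf2 supplied most of these: without it, the 27 other tested regions had 7 higher and 7 lower in Treg minus naive, 8 and 5 with TGFβ, and 11 and 3 with TGFβ+RA+VitC. The counts fell with depth. With every library thinned to the smallest, the higher regions against naive were 19 in Treg, 20 with TGFβ and 21 with TGFβ+RA+VitC. The shares of all regions called after thinning are not given here, so these counts have no background and do not rank the groups. The count for TGFβ was 17 without TGFβ replicate 2.

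Of the gene sums, all 5 were called in Treg minus naive (background 39.2% of 14951 symbols), and 4 of 5 in TGFβ minus naive (41.6%), in TGFβ+RA+VitC minus naive (55.8%) and in TGFβ+RA+VitC minus TGFβ (23.1%). In TGFβ minus Treg (35.8%) and TGFβ+RA+VitC minus Treg (49.7%), 3 of 5 were called. With so many symbols called, the size and direction of the differences separate the members more than the calls do.

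Helios and Eos were then set against the rest of the family by the ratio of their reads to those of Ikzf1, Ikzf3 and Ikzf5 in the same library. For Ikzf2 the log2 ratio was -1.83 and -1.89 in naive, 0.17 and 0.14 in Treg, -0.28 and -0.37 with TGFβ, and -0.57 and -0.61 with TGFβ+RA+VitC. Treg was highest, followed by TGFβ and then TGFβ+RA+VitC, with naive lowest and no overlap. Treg minus naive was 2.01, or 4.03-fold. In the inputs the ratio lay between 0.39 and 0.63 in all 8 libraries. With 2 libraries against 2, an exact permutation test cannot go below p = 0.333, which every Ikzf2 comparison reached. Over all 4 groups the exact permutation test gave p = 0.0095, the smallest possible (0.014 adjusted over the 3 ratios), against 0.33 in the inputs. The order of the iTreg groups was opposite to that of the plain Ikzf2 sums. Ikzf1 and Ikzf3, which make up most of the divisor, were themselves higher with TGFβ+RA+VitC than with TGFβ. The ratio does not remove differences in pull-down strength between groups. Whether a weaker pull-down drew the TGFβ ratio toward that of the inputs was not tested, nor was any other reason for the order.

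For Ikzf4 the log2 ratio was -4.33 and -4.38 in naive, -3.43 and -3.48 in Treg, -3.47 and -3.25 with TGFβ, and -3.32 and -3.27 with TGFβ+RA+VitC. Naive was lowest and did not overlap the others, whereas TGFβ overlapped both Treg and TGFβ+RA+VitC. The differences from naive were 0.90, 1.00 and 1.06 in the same order. Over 4 groups the exact permutation test gave p = 0.076. Without region 2 of Ikzf4 the differences from naive became 0.94 in Treg, -0.05 with TGFβ and -0.12 with TGFβ+RA+VitC, so that the iTreg gain rests on the 5′ region. For both genes together over the rest, Treg minus naive was 1.89, TGFβ minus naive 1.46 and TGFβ+RA+VitC minus naive 1.24.

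**Figure D5:**
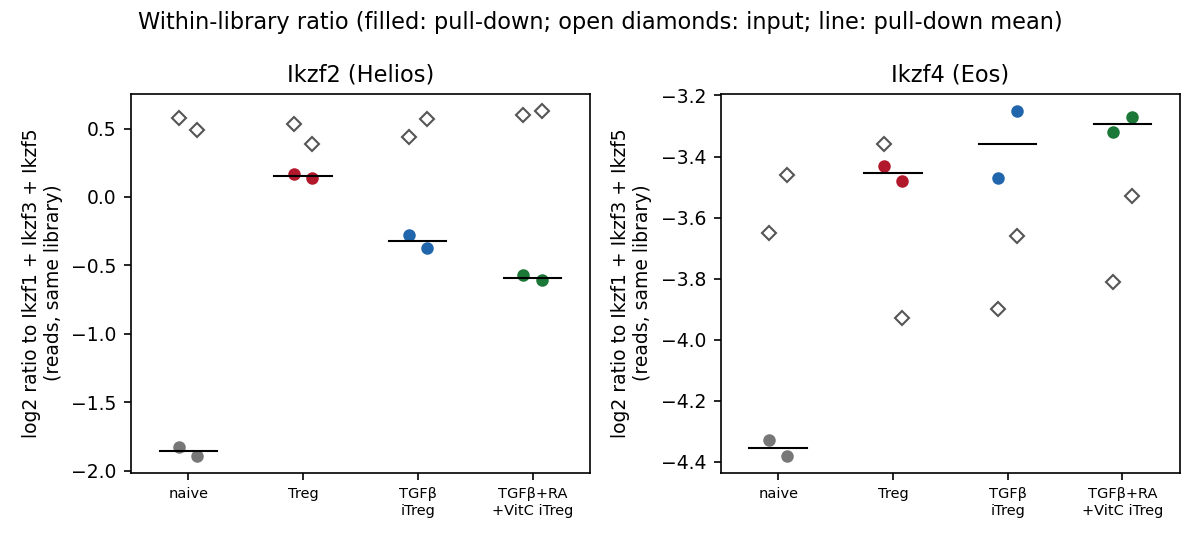
Log2 ratio of reads over Ikzf2 or Ikzf4 to reads over Ikzf1, Ikzf3 and Ikzf5 in the same library (vertical axis) for the 8 pull-down libraries (filled) and 8 inputs (open diamonds), with pull-down means as lines. Ikzf2 lies far below its inputs in naive cells and nearest to them in Treg; Ikzf4 in naive lies below all other pull-downs.

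Input DNA, which was not pulled down, showed little of this. Of the 48 member regions with enough input reads, edgeR's test called 0 in each of the 6 comparisons. Between 1 and 5 of them per comparison had an unadjusted p below 0.05. The share of all input regions called was 0.00223% in TGFβ minus naive and in TGFβ minus Treg, 0.00668% in TGFβ+RA+VitC minus naive, 0.00445% in TGFβ+RA+VitC minus Treg, and 0.0% in the rest. Only 1 of the 30 gene-sum comparisons of inputs was called, TGFβ+RA+VitC minus Treg at Ikzf2 (0.21, edgeR adjusted p = 0.00155, where 0.273% of symbols were called), in the direction opposite to the pull-down. The share of symbols called in the inputs was 0.0234% in Treg minus naive and in TGFβ+RA+VitC minus naive, 0.0156% in TGFβ minus naive, 0.0702% in TGFβ minus Treg and 0.0% in TGFβ+RA+VitC minus TGFβ. Relative to the share of input reads in the same regions, Ikzf2 held 0.34 and 0.35 times as much in the naive pull-downs, 1.42 and 1.44 in Treg, 0.80 and 0.80 with TGFβ, and 0.80 and 0.77 with TGFβ+RA+VitC. These are shares of all reads in regions, so a value below 1 means a smaller share in the pull-down than in the input. Ikzf1 held 1.87 and 1.92 in naive and 1.25 and 1.6 with TGFβ, and Ikzf3 1.77 and 1.81, then 1.5 and 1.51. Like Ikzf2, both lay nearer to 1 with TGFβ than in naive. Ikzf4 moved away from 1 (1.11 and 0.95, then 1.77 and 2.04), and the Ikzf5 libraries overlapped (0.69 and 0.42, then 0.53 and 0.91).

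The genes whose sums followed a member most closely over the 8 pull-down libraries were ranked among 8441 symbols with a mean of at least 100 reads. For Ikzf2 they were Mir146 (Pearson's r 0.9901), Rgs8 (0.9895), Gbp5 (0.9855), Arrdc4 (0.9855) and Amz2 (0.9823), and for Ikzf4 Gfod1 (0.995), Adamtsl4 (0.9931), Zbtb20 (0.9915), Jmjd1c (0.9902) and Dusp1 (0.9874). Among the members, r was 0.83 between Ikzf2 and Ikzf4, 0.88 between Ikzf4 and Ikzf5, and -0.71 between Ikzf1 and Ikzf2. With 4 groups of 2 libraries that share their depths, these are descriptions of group means only.

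Known partners and targets of the family did not share 1 direction. Of 20 genes for NuRD subunits and other co-repressors, 4 were higher and 4 lower in Treg than in naive, 3 and 10 with TGFβ, and 4 and 5 with TGFβ+RA+VitC, while 6 were higher and 1 lower in TGFβ+RA+VitC than in TGFβ. Their median difference was -0.02, -0.24, -0.02 and 0.12, beside medians between -0.02 and 0.00 over all symbols. Beside these counts, 39.2%, 41.6%, 55.8% and 23.1% of all symbols were called in the same comparisons. The 8 of 20 called in Treg and 9 of 20 with TGFβ+RA+VitC are near or below those shares, so they are no result about the list. The largest called differences included Mbd3, the NuRD subunit, at -0.96 (SE 0.29) with TGFβ and 0.49 (SE 0.14) in Treg, the histone methyltransferase gene Ezh2 at 0.76 (SE 0.08) with TGFβ, and the histone chaperone gene Rbbp7 at 0.96 (SE 0.09) with TGFβ+RA+VitC. Of 24 genes known as bound or regulated by Ikaros proteins in lymphocytes, 6 were higher and 7 lower in Treg than in naive, 10 and 7 with TGFβ, and 14 and 7 with TGFβ+RA+VitC, beside the same shares of all symbols called (39.2%, 41.6% and 55.8%). Il10, an inhibitory cytokine gene, was higher in all 3 (1.31, SE 0.08; 2.18, SE 0.10; 1.69, SE 0.09). Foxp3 was higher in Treg (1.25, SE 0.11) and with TGFβ+RA+VitC (1.42, SE 0.13), with 16.2 CPM in naive, 38.8 in Treg, 18.4 with TGFβ and 43.8 with TGFβ+RA+VitC as group means. Dtx1, a Notch pathway gene, was lower with TGFβ+RA+VitC (-1.77, SE 0.08).

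Marker genes of these and other cells were summed in the same way. No listed marker found in the table was at 0 reads, markers of other cell types included. The level was 4.50 to 6.59 CPM per kb for 8 T cell markers, 6.32 to 8.33 for 5 naive T cell markers and 4.61 to 5.73 for 6 CD8 and NK cell markers. The summed level of 7 B cell markers was 4.18 to 5.05 CPM per kb in all groups. That of 7 myeloid and dendritic markers was 4.63 and 4.68 in naive, 3.22 and 3.23 in Treg, 3.34 and 3.30 with TGFβ, and 2.39 and 2.60 with TGFβ+RA+VitC. The 6 Treg markers, which include Ikzf4 and Foxp3, had 2.54 and 2.53 CPM per kb in naive, 5.21 and 5.19 in Treg, 10.5 and 12.2 with TGFβ, and 14.0 and 13.4 with TGFβ+RA+VitC. Not every marker followed this order. Foxp3 had a mean of 18.4 CPM with TGFβ against 38.8 in Treg (-1.06, SE 0.18), and Ikzf4 106 against 113 (not called). The other markers of this list are not given singly here. The part of other cells in the results above was not tested.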

How the data were processed

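CMS-IP was applied to 16 libraries (4 groups, 2 pull-down and 2 input each). Bisulfite turns 5hmC into CMS, which serum then precipitates. The authors deposited whole-number read counts per region (mm9), the union of broad peaks, with each region's nearest transcript. The submitters' processing notes name MACS2 2.1.0.20151222, SAMtools 1.7, Trim Galore 0.4.2 and bcl2fastq 2.20.0.442; the aligner is not given in the sources used here. Spike-in reads were not used, so values are relative within a library.

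Counts were fitted per region and summed per symbol with edgeR 4.0.16 (R 4.3.3; TMM, filterByExpr with minimum count 10, quasi-likelihood test over the 8 pull-downs, 4 residual degrees of freedom), and checked on simulated data. DESeq2 1.42.0 was an alternative. SE is the log2 difference over the root of F. The alternatives were library sizes without TMM, no filter, thinned reads, single libraries left out, a replicate block, transcript regions only, TMM from regions, subtracted inputs, and the ratio without the largest region. The members, lists and tests were chosen with earlier results of these data known, and the exact tests over 4 groups were added after seeing the values. Per member, named regions were that with the most reads, those on its promoter or 5′ UTR, and in each comparison the called ones with the largest, smallest or surest difference and a mean of at least 20 reads; other regions named were chosen after their values were seen. Like genes were the 5 with the highest r, and list genes were taken from the 4 largest called differences per comparison.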

Additional observations from a re-analysis of the deposited data

How the results depend on the processing

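Direction and call were kept by most values under most alternatives: of the gene sums, 29 of 30 with DESeq2, 30 with TMM from regions, 30 with no filter, 28 with thinned reads, 29 over transcript regions only, 26 with library sizes. With 1 library left out, 4 calls of gene sums changed. Deviations of libraries with the same number in their labels correlated at 0.0168 (naive and Treg) and -0.00142 (the iTreg groups). Pull-down replicates differed by only 1.12 to 1.23 times the variance of counting, so such correlations cannot tell whether libraries were paired. Pairing was not tested in another way. A replicate block left 48 regions higher and 9 lower in Treg minus naive and 9 and 2 in TGFβ+RA+VitC minus TGFβ, and changed no call of a gene sum. Where a value moved and no cause is named, the cause was not tested. Depth limits the TGFβ libraries most.

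Thinning to 1648804 reads, which leaves fewer reads, gave 19 higher regions in Treg minus naive, 20 higher and 3 lower in TGFβ minus naive, 21 higher in TGFβ+RA+VitC minus naive, 6 higher in TGFβ+RA+VitC minus TGFβ and 12 higher in TGFβ+RA+VitC minus Treg. DESeq2 gave 3 lower regions in TGFβ+RA+VitC minus naive, 7 higher and 0 lower in TGFβ+RA+VitC minus TGFβ, and 7 higher and 13 lower in TGFβ minus Treg. For TGFβ+RA+VitC minus TGFβ, library sizes gave 7 higher and 4 lower, and no filter 1 lower. The shares of all regions called under these alternatives are not given here, so the counts have no background. With 1 library left out, higher regions ranged from 17 to 31 (TGFβ minus naive), 6 to 12 (TGFβ+RA+VitC minus TGFβ) and 5 to 12 (TGFβ minus Treg). Lower regions ranged from 3 to 6 (TGFβ and TGFβ+RA+VitC minus naive), 0 to 3 (TGFβ+RA+VitC minus TGFβ) and 12 to 21 (TGFβ minus Treg). These low counts came without TGFβ replicate 1 or 2 or TGFβ+RA+VitC replicate 1, the lone library being assumed to vary like the others.

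With library sizes, gene sums were -0.17 for Ikzf1 (TGFβ+RA+VitC minus naive, now called), 0.10 for Ikzf1 and 0.06 for Ikzf2 (TGFβ+RA+VitC minus TGFβ, no longer called) and -0.12 for Ikzf3 (TGFβ+RA+VitC minus Treg, reversed). Ikzf1 over transcripts gave 0.15 for TGFβ+RA+VitC minus TGFβ. Ikzf5 minus naive was no longer called in Treg with DESeq2 (0.42) or thinning (0.46), nor with TGFβ+RA+VitC by thinning (0.35). With 1 library left out, Ikzf5 ranged from 0.22 to 0.62 in Treg and 0.20 to 0.60 with TGFβ minus naive, and TGFβ+RA+VitC minus TGFβ from 0.15 to 0.28 for Ikzf1 and 0.13 to 0.21 for Ikzf2.

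The Ikzf2 ratio over transcript regions was 2.26, 1.72 and 1.51 against naive (Treg, TGFβ, TGFβ+RA+VitC), -0.21 between iTreg groups and -0.53 for TGFβ minus Treg. Without the largest region it was 1.38 and 1.15 for the iTreg groups minus naive, and -0.63 and -0.86 for them minus Treg. With 1 library left out it ranged from 1.49 to 1.57 (TGFβ minus naive), -0.31 to -0.22 (between iTreg groups) and -0.53 to -0.44 (TGFβ minus Treg). The Ikzf4 ratio without the largest region reversed to -0.05 and -0.12 for the iTreg groups minus naive, -0.07 between them, and -0.98 and -1.05 minus Treg. With inputs subtracted it was -0.27 between iTreg groups, 0.61 for TGFβ minus Treg and 0.34 for TGFβ+RA+VitC minus Treg. With 1 library left out it ranged from 0.88 to 1.11 (TGFβ minus naive), -0.04 to 0.18 (between iTreg groups) and -0.02 to 0.21 (TGFβ minus Treg). For both genes together, transcript regions gave 2.05, 1.60 and 1.43 against naive and -0.17 between iTreg groups. Without the largest regions it was 1.94, 1.29 and 1.07 against naive, and -0.65 and -0.87 for the iTreg groups minus Treg. Subtracted inputs gave sums below 0 for Ikzf2 outside Treg and for Ikzf4 in 1 naive library, so those ratios have no value.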

Other observations

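On the far downstream side of Ikzf2, the table gives the next regions to Erbb4, a receptor tyrosine kinase gene. Of 5 such regions, 4 could be tested. None was called in Treg minus naive (0.36 to 1.75), 1 was higher with TGFβ and 3 were higher with TGFβ+RA+VitC (1.08 to 5.55 over the 4). Around Ikzf1, none of the 7 flanking regions tested was called in Treg minus naive. Upstream of Ikzf4, 4 of 5 flanking regions were higher in Treg than in naive and 3 of 5 were higher with TGFβ+RA+VitC. Among all tested regions, 13.0% were called higher than naive in Treg, 13.1% with TGFβ and 21.9% with TGFβ+RA+VitC. Some of these flanks hold few reads. The Erbb4 difference of 5.55 rests on a naive mean of 0.0495 CPM. The Ikzf4 flanks that start at 10:128087809 and 10:128092088 had naive means of 0.322 and 0.569 CPM.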
